A study of Mus musculus with 16 samples.

Results

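The 77 genes described here are the protein-coding mouse genes whose symbols begin with Mrpl or Mrps followed by a digit, with Mrpl23 left out, among 21887 protein-coding genes of the mm10 build. By textbook assignment, 50 encode proteins of the large subunit of the mitochondrial ribosome and 26 encode proteins of the small subunit. The symbols do not follow the subunits throughout, since Mrps18a and Mrps30 encode large-subunit proteins, and Mrps36 is now known as an adaptor of the 2-oxoglutarate dehydrogenase complex, which makes succinyl-CoA. The genes lie on 17 chromosomes, with 11 on chromosome 11 and 0 on X or Y.

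Chromatin came from mouse embryonic fibroblasts that had been immortalized, and regions bound by an antibody were found by sequencing the precipitated DNA (ChIP-seq). The experimental line was R26M2rtTA/+;TetOcre;Sdhcfl/fl, with both copies of Sdhc floxed, and the control line was R26M2rtTA/+;TetOcre;Sdhcfl/wt, with 1 floxed and 1 wild-type copy. Sdhc codes for a part of succinate dehydrogenase that anchors it in the membrane, and loss of this enzyme lets succinate build up. Both lines carried the doxycycline-controlled Cre and received doxycycline at 1 µg/mL, so the control line was also exposed to Cre and could lose 1 copy of Sdhc, and cells were collected at day 16. Per line there were 2 input samples and 2 samples for each of 3 antibodies, to succinyllysine, H3K4me3 and H3K27me3, 16 samples in all. Each genotype is represented by a line, and whether a line is a clone is not stated in the labels. For each antibody a common list of regions stands for its 4 samples, with start and end positions and no height or value per sample. The lines could therefore not be compared, no replicate spread could be given, read depth is unknown, and every value below describes the list and not a condition.

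The lists held 10888 succinyllysine regions, 26654 H3K4me3 regions and 98342 H3K27me3 regions. As a check of the labelled cell type, H3K4me3 lay at a gene end in 9 of 10 fibroblast markers, including Col1a1, Vim and Pdgfra, with Thy1 as the exception, in regions of 3200 to 7800 bp, where 55.6% of all protein-coding genes had it. It lay at 3 of 6 epithelial markers, a share near that of all genes, in regions of 800 to 1400 bp. It also lay at 2 of 6 haematopoietic and endothelial markers, Cd34 and Kdr (2000 bp each), and at 1 of 6 muscle and neuronal markers, Tubb3 (3000 bp).

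Mitochondrial ribosomes translate the few proteins that mitochondrial DNA encodes, all of them subunits of the respiratory chain and ATP synthase. Their RNA comes from mitochondrial DNA, but every one of their proteins is made in the cytosol from a nuclear gene and imported. About the core shared with bacteria, mammalian mitochondrial ribosomes have gained proteins with no bacterial counterpart, here 31 of the 77 genes against 45 with one. H3K4me3 marks the starts of active genes, H3K27me3 marks chromatin silenced by Polycomb, and succinyllysine is lysine, on histones or other proteins, that carries a succinyl group derived from succinyl-CoA.

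H3K4me3 was listed at nearly all of these genes. A region lay within 1000 bp of a gene end in 76 of the 77 genes (98.7%, exact Clopper-Pearson 95% interval from 93.0% upward), where 55.6% of all protein-coding genes had one. The exception by this rule was Mrps23, which encodes a small-subunit protein without a bacterial counterpart. Its annotated start lies 10282 bp inside the outer gene boundary on chromosome 11 (88194106 to 88211507). An H3K4me3 region of 3700 bp covered that start, 8895 bp from the lower gene end and 4807 bp from the upper one. Mrps23 was thus marked over its annotated start and missed only by the gene-end rule. Starts from RefSeq were available for 68 of the 77 genes, and H3K4me3 covered the start in 68 of 68, beside 53.0% of the 17492 protein-coding genes with such a start. The 9 genes without one, Mrpl4, Mrpl13, Mrpl15, Mrpl19, Mrpl38, Mrpl54, Mrps28, Mrps34 and Mrps35, all had H3K4me3 at a gene end.

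The other marks were sparse. H3K27me3 was listed at 0 of the 77 genes, a count that allows a share of up to 3.90% by the limit of 3 counts and up to 4.68% by the exact interval, where 13.6% of all protein-coding genes had it and 5.62% of the 12163 genes with H3K4me3. No H3K27me3 region touched the body of any of the 77 genes, and the nearest lay 2433 bp from Mrps9, which encodes a small-subunit protein with a bacterial counterpart. A region touched the body of 18.7% of all protein-coding genes and of 8.37% of those with H3K4me3 at an end. Those genes are longer, with median lengths of 17169 and 22773 bp beside 7632 bp. A longer gene can meet more regions by its length alone, and what part this has was not tested. Succinyllysine was listed at 4 of 77 genes (5.19%, interval 1.43 to 12.8), where 5.42% of all genes had it, so the background lies inside the interval. Among genes with H3K4me3 the shares were 4 of 76 (5.26%) for these genes and 8.46% for all. Intervals cover counting error only, and neighbouring genes are not independent.

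**Figure D1:**
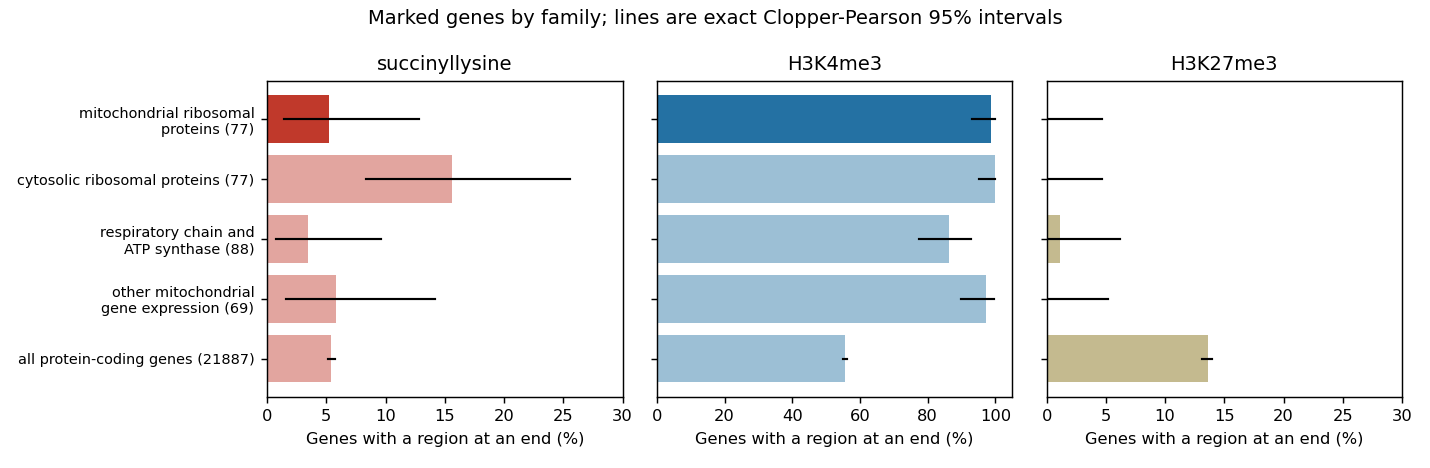
Percentage of genes with a region within 1000 bp of a gene end, for succinyllysine, H3K4me3 and H3K27me3, in 5 sets of genes, with the number of genes in brackets and lines for exact 95% intervals. Mitochondrial ribosomal protein genes had 5.19% succinyllysine, 98.7% H3K4me3 and 0% H3K27me3, beside 5.42%, 55.6% and 13.6% of all protein-coding genes.

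The width of the H3K4me3 region varied more than 5-fold among these genes. Taking the widest region at either end, widths ran from 1900 to 10100 bp, with quartiles at 3175 and 5200 bp and a median of 3650 bp (exact binomial 95% interval of the median 3500 to 4400, n = 76). Over all 12163 genes with H3K4me3 the range was 200 to 31100 bp, with quartiles at 2500 and 4600 bp and a median of 3500 bp. Narrow regions were rare, with 1 of 76 genes under 2000 bp (1.32%, beside 16.0% of all H3K4me3 genes) and 11 under 3000 bp (14.5%, beside 36.3%). Regions of 5000 bp or more were at 26 of 76 genes (34.2%, beside 20.6%). Only 18.6% of all regions in the H3K4me3 list were as wide as the median of these genes, the list having a median of 1100 bp.

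The widest H3K4me3 region lay at Mrpl52, which encodes a large-subunit protein without a bacterial counterpart (10100 bp, chromosome 14, 54425201 to 54435300). It spanned the whole gene of 2842 bp and ran on over the start of Mmp14, which encodes a membrane-bound matrix metalloproteinase. Mrpl2, for a conserved core protein of the large subunit, lay within 10000 bp (chromosome 17, 46643201 to 46653200), and Mrpl49 within 9500 bp (chromosome 19, 6054601 to 6064100). The regions at Mrpl2 and Mrpl49 each held the starts of a pair of other genes, Klc4 and Cul7 beside Mrpl2, and Fau and Znhit2 beside Mrpl49. Klc4 encodes a kinesin light chain, Cul7 a cullin, and Fau the precursor of a cytosolic ribosomal protein. Next were the small-subunit genes Mrps16 (7900 bp) and Mrps34 (7000 bp). Mrps34 is only 1170 bp long, and its region came within 1000 bp of the ends of 4 other genes.

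The narrowest were Mrpl45 (1900 bp), Mrpl42 (2200 bp), Mrpl33 (2600 bp), Mrpl16 (2700 bp) and Mrpl17 (2800 bp), all genes of the large subunit, though Mrpl3, Mrpl34, Mrps25 and Mrps36 tied with Mrpl17 at 2800 bp. By the region over the annotated start, the narrowest were Mrpl34 and Mrpl36, at 1800 bp each. Their widest regions, of 2800 and 3000 bp, lay upstream of that start. Mrpl45 encodes the protein that holds the ribosome at the inner mitochondrial membrane. Its 1900 bp region (chromosome 11, 97315701 to 97317600) directly adjoined another of 1200 bp (97314501 to 97315700), with no base between them. Such adjoining pairs occurred 1911 times in the H3K4me3 list, so a deposited width can be a piece of a longer stretch.

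**Figure D2:**
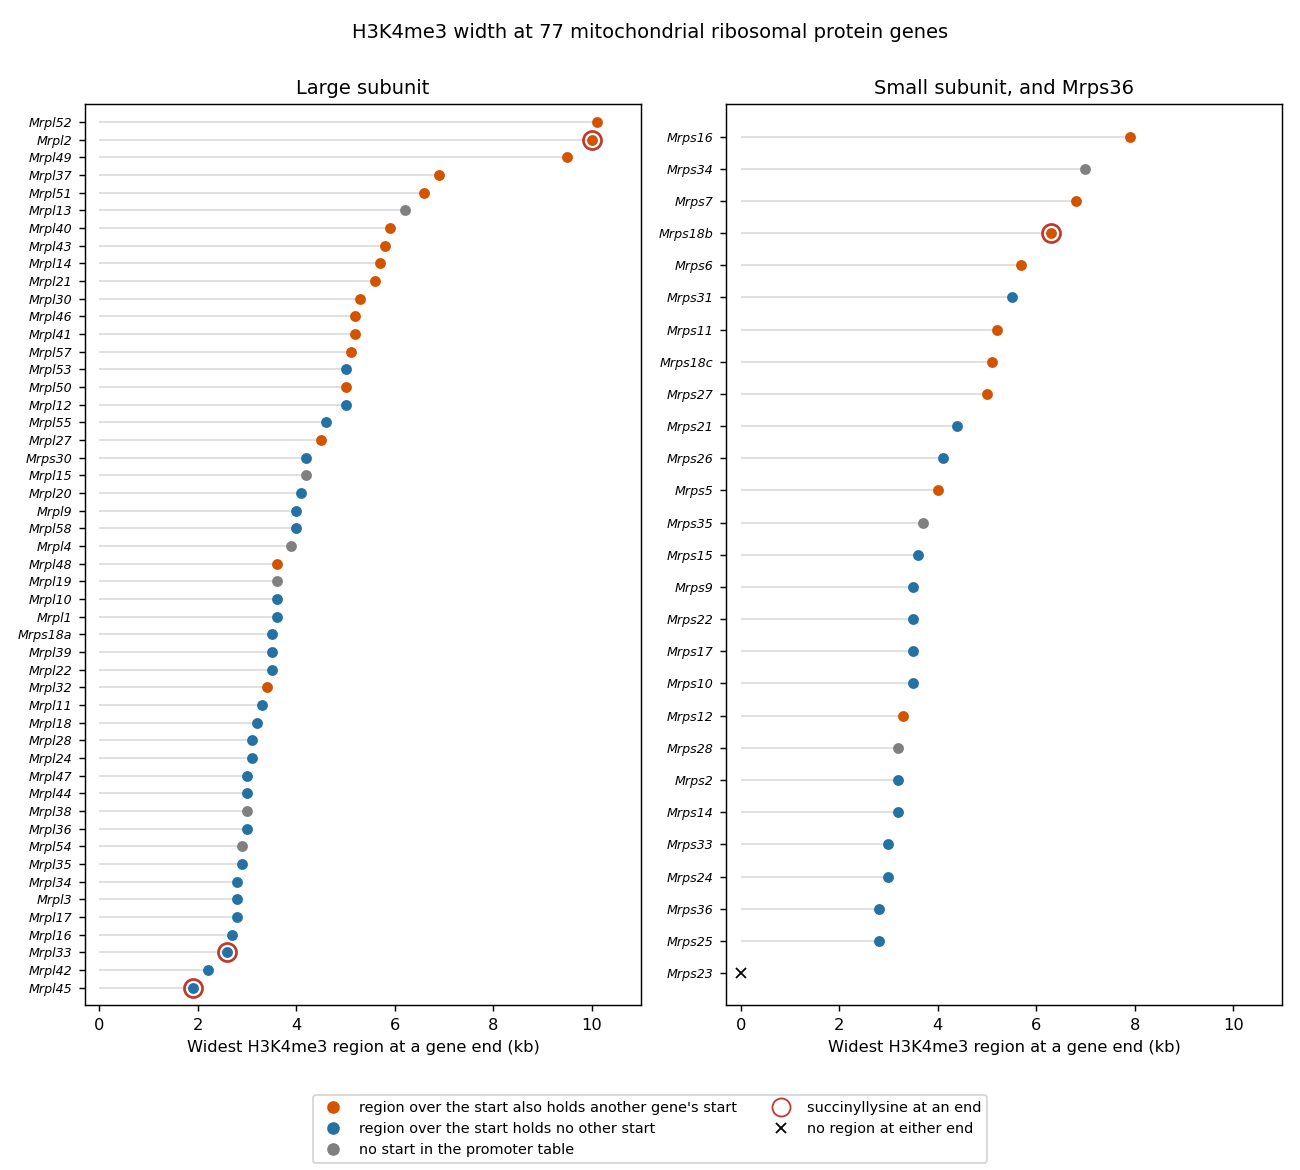
Width in kb of the widest H3K4me3 region within 1000 bp of a gene end, with a row for each of the 77 genes, split into large subunit and small subunit (with Mrps36). Orange points, whose region over the start also holds another gene's start, fill most of the upper end, where Mrpl52 reaches 10100 bp, and red rings mark the 4 genes with succinyllysine, found both among the widest and the narrowest.

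The median width was 3750 bp for large-subunit genes (interval 3400 to 4600, n = 50) and 3700 bp for small-subunit genes (3500 to 5100, n = 25). Genes without a bacterial counterpart had a median of 4600 bp (3500 to 5200, n = 30), and those with one 3600 bp (3300 to 4100, n = 45), and these intervals overlapped. Within the large subunit the medians were 5000 bp without a counterpart (3500 to 5800, n = 21) and 3600 bp with one (3100 to 4200, n = 29), and within the small subunit 4100 bp (3000 to 6300, n = 9) and 3550 bp (3200 to 5200, n = 16). These differences were not tested. H3K4me3 covered the conserved and the added proteins alike, at 45 of 45 genes with a bacterial counterpart and at 30 of 31 without one, the exception being Mrps23. Succinyllysine was at 2 genes of each kind.

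Whether the region also held the start of another gene went with its width. Of the 68 genes with an annotated start, 26 (38.2%) had the start of another protein-coding gene in the same H3K4me3 region, beside 16.9% of all genes with H3K4me3 over the start. At these 26 genes the region had a median of 5450 bp (interval 5100 to 6300, range 3300 to 10100). Mrps11 and Mrpl46 share a region, and the median over the 25 distinct regions was 5600 bp. The other 42 genes had a median of 3250 bp (interval 3000 to 3500, range 1800 to 5500). Of the 24 genes with a region of 5000 bp or more over the start, 21 had another start in it, and the other 3 were Mrps31 (5500 bp), Mrpl12 (5000 bp) and Mrpl53 (5000 bp). Among all protein-coding genes with a region that wide over the start, 835 of 1874 had another start in it. Over all genes the same split gave medians of 5100 bp with another start (n = 1567) and 3300 bp without (n = 7696). A wider region can hold more starts by its width alone, and what part this has in the relation was not tested. The split by another start was added after the data were seen.

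The regions differed mainly in their upstream reach. With another start in the region, H3K4me3 reached a median of 2863 bp upstream and 2619 bp downstream of the start, and without one it reached 691 bp upstream and 2558 bp downstream. Over all genes the corresponding medians were 2548 and 2509 bp with another start, and 763 and 2463 bp without. At 22 of the 26 genes with another start, the region was shared with a head-to-head partner. Such a partner, as defined below, starts upstream or overlaps by at most 100 bp. A region that holds an upstream start must reach it, so a longer upstream reach partly follows from the grouping. The downstream reach was longest at Mrpl52 (8391 bp), Mrps16 (7833 bp), Mrpl2 (6979 bp) and Mrps6 (4364 bp), each in a region with another start.

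**Figure D3:**
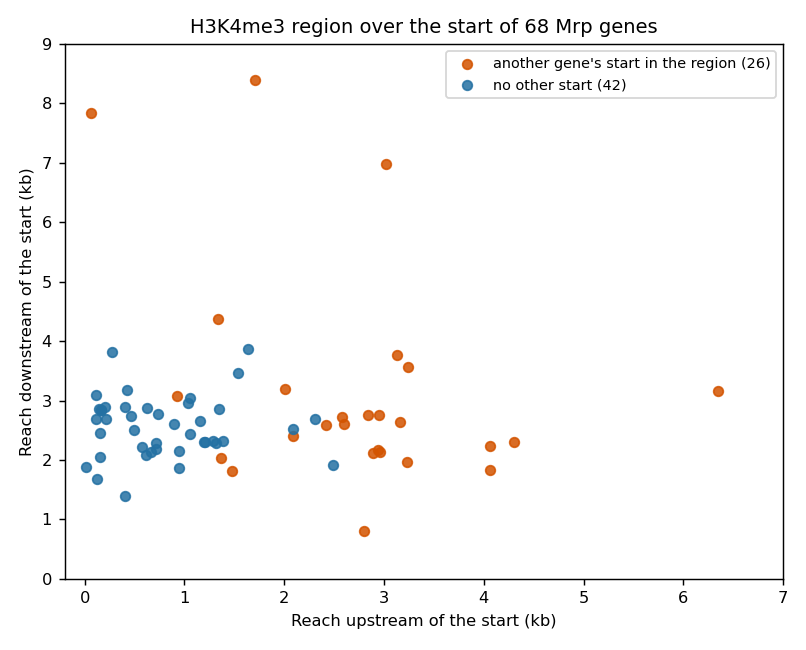
Reach in kb of the H3K4me3 region upstream (horizontal axis) and downstream (vertical axis) of the annotated start, with a point for each of 68 mitochondrial ribosomal protein genes. The 26 genes with another gene's start in the region (orange) lie mostly to the right, with a median upstream reach of 2863 bp, beside 691 bp for the 42 without one (blue), while downstream medians were 2619 and 2558 bp.

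Many of these genes were annotated head to head with a neighbour, that is, with a gene on the opposite strand starting within 1000 bp upstream or overlapping by at most 100 bp. This arrangement, which the marks do not enter, held for 24 of 68 genes (35.3%), beside 8.26% of all 17492 genes with a start and 14.1% of those with H3K4me3 at an end. The starts were 32 to 935 bp apart, with a median of 136 bp. Closest were Mrpl21 and Ighmbp2, at 32 bp, and Mrps11 and Mrpl46 were 42 bp apart. Mrps11 and Mrpl46 encode a small-subunit and a large-subunit protein and start within a common 5200 bp region (chromosome 7, 78779901 to 78785100). By distance between outer gene ends, the nearest neighbours were Apba3 at Mrpl54 (9 bp), Ighmbp2 at Mrpl21 and Ccdc142 at Mrpl53 (13 bp each), and Slc5a3 at Mrps6 (14 bp).

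Several partners act in mitochondria too. Mrpl43 starts 116 bp from Twnk, the helicase of mitochondrial DNA, within a 5800 bp region. Mrps12, which encodes a protein of the decoding centre, starts 147 bp from Sars2, the mitochondrial seryl-tRNA synthetase, within 3300 bp. Mrpl47 starts 308 bp from Ndufb5, which encodes a subunit of respiratory complex I. Other partners have other roles, such as the proteasome gene Psma2 at Mrpl32 (205 bp), the histone chaperone gene Hira at Mrpl40 (113 bp) and the chaperonin gene Tcp1 at Mrpl18 (238 bp). Of the 24 head-to-head genes, 22 shared their H3K4me3 region with the partner. In the 2 that did not, Mrpl47 and Mrpl18, a pair of adjoining regions met between the starts, of 3000 and 2700 bp at Mrpl47 and of 2900 and 3200 bp at Mrpl18.

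H3K4me3 lay at both gene ends in 25 of the 77 genes and at 1 end in 51. Among all 21887 protein-coding genes it lay at both ends in 1677 and at 1 end in 10486. Both ends were marked at 67 of 77 cytosolic ribosomal protein genes and at 24 of 88 respiratory chain and ATP synthase genes. Median gene lengths were 7632 bp for the mitochondrial ribosomal genes, 17169 bp for all, 3175 bp for cytosolic ribosomal and 7106 bp for respiratory chain genes. Of the 25 mitochondrial ribosomal genes marked at both ends, 21 were shorter than 5000 bp, and 25 of the 77 genes were that short. A region over the start of a short gene can also lie within 1000 bp of its far end. Counts of genes marked at both ends therefore depend on gene length by the rule itself, in every family. In 6 genes no region was common to both ends. At Mrps18b the region at the start end was 6300 bp and that at the far end 2600 bp. The corresponding widths were 4600 and 700 bp at Mrpl55, 3800 and 4000 bp at Mrpl58, which encodes a peptidyl-tRNA hydrolase that frees stalled ribosomes, and 3600 and 3300 bp at Mrpl10, which encodes a protein of the ribosomal stalk. Mrpl36, whose annotated start lies over 1000 bp inside the gene, had 3000 bp upstream at -4608 to -1609 bp from that start, and 1800 bp over the start itself, which is near the other gene end. At Mrpl38, for which no start was used, the lower end had 2500 bp and the upper end 3000 bp.

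**Figure D4:**
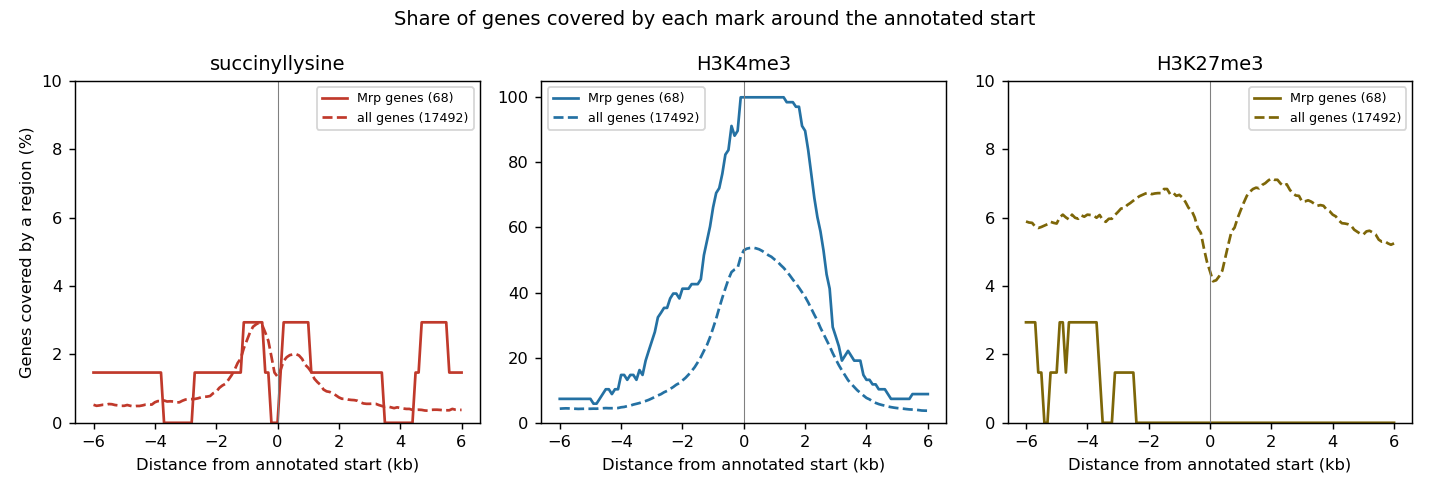
Percentage of genes covered by a region at each distance in kb from the annotated start, positive in the direction of transcription, for 68 mitochondrial ribosomal protein genes (solid) and 17492 protein-coding genes (dashed), with a panel per mark and different vertical scales. H3K4me3 covered 68 of 68 starts, beside 53.0% of all, and succinyllysine and H3K27me3 covered 0, beside 1.35% and 4.43%.

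Succinyllysine covered the start at none of the 4 marked genes. At Mrps18b, Mrpl33 and Mrpl45 a region lay near the start, and at Mrpl2 the mark lay past the far end. Mrps18b, which encodes a small-subunit protein counted here as without a bacterial counterpart, since its relative Mrps18c holds that place, had a region on each side of its start. The region of 2300 bp (chromosome 17, 35916901 to 35919200) lay at -2760 to -461 bp from the start, negative meaning upstream, and that of 1000 bp (35915401 to 35916400) lay at 40 to 1039 bp. Both lay wholly inside the 6300 bp H3K4me3 region. The 2300 bp region covered a start of Ppp1r10, a head-to-head partner 756 bp away that encodes a regulator of protein phosphatase 1.

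Mrpl33, for a small conserved protein of the large subunit, carried the widest pair. A region of 3300 bp (chromosome 5, 31614101 to 31617400) began 150 bp downstream of the start and shared 2300 bp with the 2600 bp H3K4me3 region. Another of 4300 bp (31623101 to 31627400) lay past the far end of the gene, towards Rbks, and shared 0 bp with H3K4me3. It was one of 6 distinct succinyllysine regions at these genes and the only one of the 6 wholly off H3K4me3.

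At Mrpl45 a 900 bp region (chromosome 11, 97314601 to 97315500) lay at -1115 to -216 bp from the start, within the 1200 bp H3K4me3 region described above. At Mrpl2 a region of 1100 bp (chromosome 17, 46650701 to 46651800) lay 569 bp beyond the far end of the gene, inside the 10000 bp H3K4me3 region, and 363 to 1462 bp downstream of the start of Cul7. Succinyllysine thus lay nearer to the neighbour's start than to that of Mrpl2. Mrpl2 was the closest to the 1000 bp limit among the marked genes. Just outside it were Mrpl52, where succinyllysine lay 1851 bp from the gene within the 10100 bp H3K4me3 region shared with Mmp14, then Mrpl38 (2533 bp) and Mrps36 (4040 bp).

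Succinyllysine covered the start in 0 of 68 genes, beside 1.35% of all genes with a start and 2.14% of those with H3K4me3 at an end. Among all genes with an annotated start and succinyllysine at an end, it covered their own start in 219 of 987 (22.2%), so a position off the start was also the usual one over the whole annotation.

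**Figure D5:**
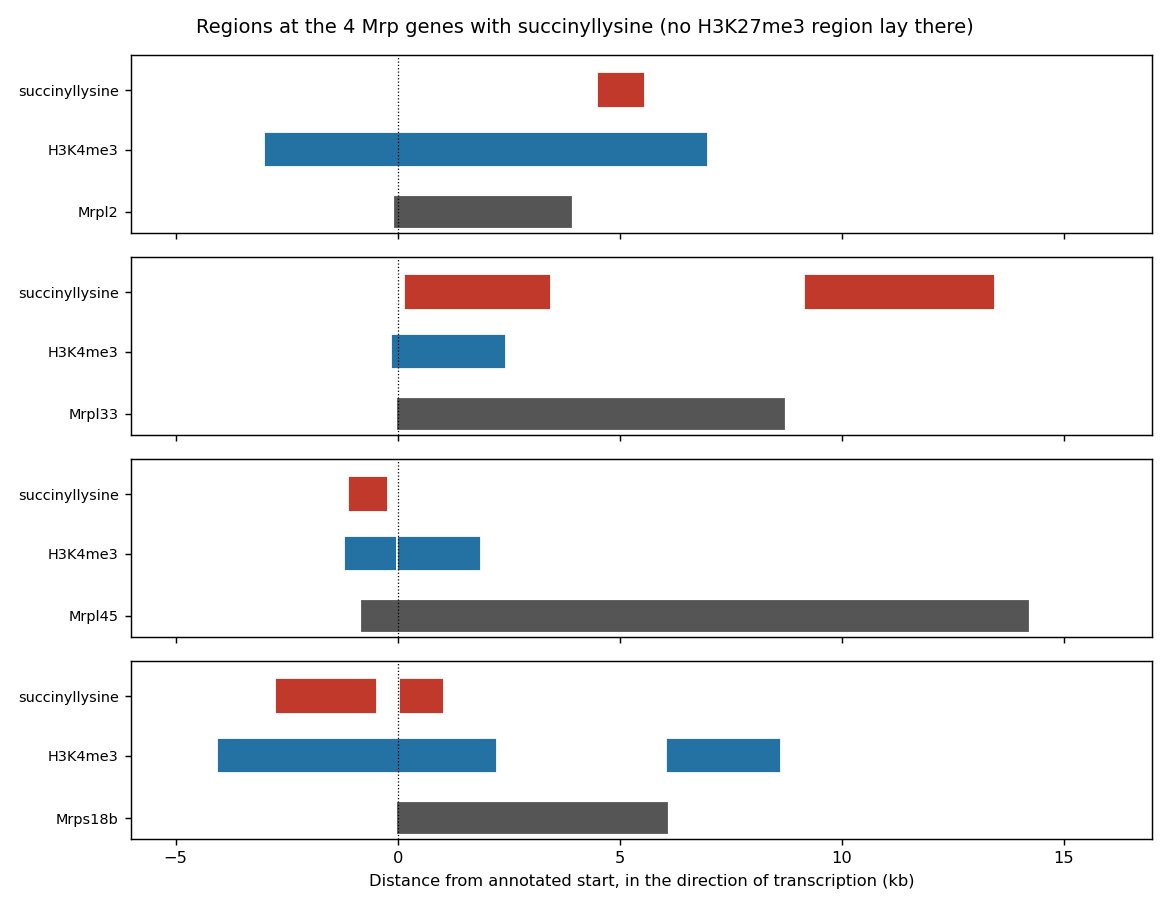
Regions at the 4 mitochondrial ribosomal protein genes with succinyllysine, by distance in kb from the annotated start (dotted line), with the gene as a grey bar, H3K4me3 in blue and succinyllysine in red. No red bar crosses the start, and 1 of the 6, the 4300 bp region past Mrpl33, lies away from H3K4me3.

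The promoters of these 4 genes are given because they are the ones with succinyllysine at a gene end, although at Mrpl2 the mark lies away from the promoter. Each runs from 250 bases before to 50 bases after the start (RefSeq, GRCm38.p6), 5′ to 3′ on the strand of the gene. Capitals mark 3 short motifs, CCGGAAG of ETS factors such as GABP, GCATGCG of NRF1 and AAGATGG of YY1, on either strand, where overlapping matches run together. These factors are known for their part in the expression of nuclear genes for mitochondrial proteins.
Mrps18b, chr17:35916391-35916690, minus strand: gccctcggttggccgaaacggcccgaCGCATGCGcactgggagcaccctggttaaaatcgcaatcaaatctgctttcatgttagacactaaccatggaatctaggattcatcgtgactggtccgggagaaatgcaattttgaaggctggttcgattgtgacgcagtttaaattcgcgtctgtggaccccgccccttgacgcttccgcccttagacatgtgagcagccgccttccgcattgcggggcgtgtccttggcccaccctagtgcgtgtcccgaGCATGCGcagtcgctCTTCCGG
Mrpl33, chr5:31613701-31614000, plus strand: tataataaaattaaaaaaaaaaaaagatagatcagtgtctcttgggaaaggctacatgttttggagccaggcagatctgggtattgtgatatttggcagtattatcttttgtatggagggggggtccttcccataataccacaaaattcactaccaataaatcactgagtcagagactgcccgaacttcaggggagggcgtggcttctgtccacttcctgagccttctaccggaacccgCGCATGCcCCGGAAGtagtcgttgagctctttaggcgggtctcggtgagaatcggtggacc
Mrpl45, chr11:97315466-97315765, plus strand: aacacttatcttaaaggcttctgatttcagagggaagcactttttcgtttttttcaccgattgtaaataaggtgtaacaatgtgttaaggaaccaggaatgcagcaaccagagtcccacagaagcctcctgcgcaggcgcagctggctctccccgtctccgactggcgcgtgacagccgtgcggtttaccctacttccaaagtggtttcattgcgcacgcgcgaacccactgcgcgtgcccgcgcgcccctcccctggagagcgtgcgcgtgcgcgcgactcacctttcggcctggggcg
Mrpl2, chr17:46645971-46646270, plus strand: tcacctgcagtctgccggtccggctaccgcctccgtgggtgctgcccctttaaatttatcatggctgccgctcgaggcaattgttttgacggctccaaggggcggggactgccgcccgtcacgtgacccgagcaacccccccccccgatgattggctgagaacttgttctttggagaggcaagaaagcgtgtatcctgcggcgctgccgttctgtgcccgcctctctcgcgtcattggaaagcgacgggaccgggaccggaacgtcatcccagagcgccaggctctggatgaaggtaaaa
Mrps18b and Mrpl33 held both the ETS and the NRF1 letters, which in Mrpl33 stood at -3 and -11 from the start. The promoters of Mrpl45 and Mrpl2 held none of the 3 motifs in this form.

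The next 4 promoters show the other patterns described above: Mrpl43, head to head with Twnk, Mrps11, head to head with Mrpl46, Mrpl52, with the widest H3K4me3 region, and Mrps23, with its start inside the gene.
Mrpl43, chr19:45006393-45006692, minus strand: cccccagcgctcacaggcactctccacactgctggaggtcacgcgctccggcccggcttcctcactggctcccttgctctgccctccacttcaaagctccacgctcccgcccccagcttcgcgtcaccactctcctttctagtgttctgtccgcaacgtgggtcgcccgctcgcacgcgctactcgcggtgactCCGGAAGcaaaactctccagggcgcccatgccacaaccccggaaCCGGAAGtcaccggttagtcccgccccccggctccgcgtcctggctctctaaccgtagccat
Mrps11, chr7:78782881-78783180, plus strand: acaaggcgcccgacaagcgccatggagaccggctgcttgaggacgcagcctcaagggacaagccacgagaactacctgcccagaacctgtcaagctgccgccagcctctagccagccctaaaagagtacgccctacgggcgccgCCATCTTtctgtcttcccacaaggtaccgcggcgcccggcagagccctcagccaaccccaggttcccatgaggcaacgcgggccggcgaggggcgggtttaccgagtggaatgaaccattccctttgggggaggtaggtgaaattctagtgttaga
Mrpl52, chr14:54426659-54426958, plus strand: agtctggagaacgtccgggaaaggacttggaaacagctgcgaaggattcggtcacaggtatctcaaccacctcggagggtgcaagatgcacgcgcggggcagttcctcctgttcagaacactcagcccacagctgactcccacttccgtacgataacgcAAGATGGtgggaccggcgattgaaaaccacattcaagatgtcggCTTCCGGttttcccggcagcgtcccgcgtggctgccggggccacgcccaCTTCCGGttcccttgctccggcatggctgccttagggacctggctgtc
Mrps23, chr11:88204138-88204437, plus strand: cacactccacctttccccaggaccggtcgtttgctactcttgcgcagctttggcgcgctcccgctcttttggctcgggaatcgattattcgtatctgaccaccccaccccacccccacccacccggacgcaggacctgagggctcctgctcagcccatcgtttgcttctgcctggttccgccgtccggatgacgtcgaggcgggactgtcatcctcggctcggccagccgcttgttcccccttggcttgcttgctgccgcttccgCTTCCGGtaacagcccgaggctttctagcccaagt
Mrpl43 held the ETS letters at -56 and -12 from the start, and Mrpl52 held them at -47 and 2, with the YY1 letters at -91. Mrps23 held the ETS letters at 15, and Mrps11 held the YY1 letters at -106. All positions are those of the motif's first base on the printed strand, with the start as 0.

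Over the 68 promoters, CCGGAAG occurred in 24 (35.3%, interval 24.1 to 47.8), beside 11.9% of all 17492 promoters and 19.7% of the 9263 with H3K4me3 over the start. AAGATGG occurred in 13 (19.1%, interval 10.6 to 30.5), beside 6.35% and 7.29%, and GCATGCG in 8 (11.8%, interval 5.22 to 21.9), beside 4.50% and 7.11%. The same letters occurred in the families closest in function. Cytosolic ribosomal promoters held CCGGAAG in 40.4%, AAGATGG in 15.8% and GCATGCG in 7.02% (n = 57), and respiratory chain promoters held them in 22.9%, 14.3% and 14.3% (n = 70). Of the 28 ETS matches, 25 began within 100 bases of the start (89.3%, beside 75.5% over all promoters). The promoters with both ETS and NRF1 letters were those of Mrpl17, Mrpl22, Mrpl33 and Mrps18b.

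Other motifs lay near the share of all promoters, of those with H3K4me3 over the start, or of both. GGGCGG, the GC box of SP and KLF factors, was in 33 promoters (48.5%, interval 36.2 to 61.0). It was in 46.3% of all promoters and in 70.1% of those with H3K4me3, a share above that interval. CCAAT of NF-Y was in 27 (39.7%), beside 39.2% of all and 39.3% of those with H3K4me3. CACGTG, an E-box, was in 5 (7.35%), beside 7.91% and 10.6%. TGACGTC, the cAMP response element, was in 4 (5.88%), beside 3.98% and 6.15%, and TATAAA in 4 (5.88%), beside 13.3% and 6.13%. The median promoter held 21 CpG, beside 13 for all promoters and 21 for those of genes with H3K4me3 at an end, and the median GC content was 58.2%, beside 56.3% and 61.7%. Matches are descriptions of sequence and do not show that a factor binds. H3K4me3 at genes with the ETS letters had a median width of 4100 bp (n = 23) and at those without 3600 bp (n = 44), and a difference was not tested.

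Other genes of mitochondrial gene expression carried the marks as follows. Of 69 such genes, 67 (97.1%) had H3K4me3, with a median width of 3800 bp (interval 3400 to 4100), 4 (5.80%) had succinyllysine and 0 had H3K27me3. The shares of all protein-coding genes were 55.6%, 5.42% and 13.6% in the same order, so the succinyllysine share lay near that of all genes. Among all genes with H3K4me3 at an end, 8.46% had succinyllysine and 5.62% H3K27me3. The 5 ribosomal proteins named otherwise, Dap3, Ptcd3, Chchd1, Aurkaip1 and Gadd45gip1, all had H3K4me3, in regions of 4600 to 11600 bp, and Chchd1, with the widest, had 1100 bp of succinyllysine. Translation factors had H3K4me3 at 11 of 11 genes and succinyllysine at 0. Among assembly and rRNA modification factors H3K4me3 marked 22 of 23, and succinyllysine marked the rRNA methyltransferase gene Nsun4 and Ngrn (1200 bp each). Among mitochondrial aminoacyl-tRNA synthetases H3K4me3 marked 16 of 17, and succinyllysine marked Tars2 (1300 bp). Genes for replication and expression of mitochondrial DNA had H3K4me3 at 13 of 13 and succinyllysine at 0. The 2 genes without H3K4me3 at an end, Rcc1l and Aars2, had it inside the gene.

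Set beside the families closest in function, the cytosolic ribosomal protein genes had H3K4me3 at 77 of 77 genes, with a median width of 4400 bp (interval 4200 to 4700), and succinyllysine at 12 of 77 (15.6%, interval 8.32 to 25.6), an interval that overlaps the 1.43 to 12.8% of the mitochondrial ribosomal genes. Respiratory chain and ATP synthase genes had H3K4me3 at 76 of 88 (86.4%), with a median of 4000 bp (3500 to 4700). They had succinyllysine at 3 (3.41%), namely Atp5g1, Atp5g2 and Sdhc. The 12 without H3K4me3 were Cox4i2, Cox5a, Cox6a2, Cox6b2, Cox7a1, Cox7a2, Cox7b2, Cox8b, Cox8c, Ndufa4l2, Ndufb4b and Ndufb4c. H3K27me3 was sparse in these families too, at 0 of 77 cytosolic ribosomal and 1 of 88 respiratory chain genes (1.14%, Ndufb4c). Head-to-head starts occurred at 8 of 57 cytosolic ribosomal genes (14.0%) and at 19 of 70 respiratory chain genes (27.1%), beside the 35.3% given above. Of all protein-coding genes, 55.6% had H3K4me3, 5.42% succinyllysine and 13.6% H3K27me3, and 8.26% of those with a start were head to head. Succinyllysine was at 8.46% of all genes with H3K4me3 at an end. These are counts side by side from lists without replicates, and the differences between families were not tested.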

How the data were processed

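Alignment used Bowtie2 2.2.3 and the mm10 build, per the submitters' processing notes. The deposited lists give start and end positions alone, read as 1-based on a 100 bp grid. How regions were called, at which threshold, whether input was subtracted and whether samples were pooled is not given in the sources used.

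Genes came from RefSeq's GRCm38.p6 annotation, whose coordinates are those of mm10, and starts and promoters from a companion table (RefSeq, 68 of the 77 genes). A gene counted as marked if any region overlapped, by 1 bp or more, the 1000 bp on each side of either gene end. Its width was that of the widest such region. Starts and head-to-head partners absent from the promoter table were not counted. Gene lists matched 69 of 70 names of mitochondrial gene expression. Motifs were exact matches on both strands.

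The members, lists and families were chosen with earlier results of these data known, and no test was made, since each list is 1 observation. Named genes were those with succinyllysine or H3K27me3, those without H3K4me3, the 5 widest and 5 narrowest, and the closest to a neighbour or to succinyllysine. Others were named after their values were seen. The overlap and merging routines and the interval of the median were tested on simulated data, and the other procedures were not. Python 3.11.15, pandas 2.3.3 and scipy 1.17.1 were used.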

Additional observations from a re-analysis of the deposited data

How the results depend on the processing

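The share with succinyllysine lay between 2.60% (midpoint of the region in the window) and 6.49% (windows of 2500 bp), and that with H3K27me3 between 0 and 1.30% (windows of 2500 bp, through Mrps9), within the intervals given for both under all 10 alternatives. The share with H3K4me3 became 100% for whole genes, for annotated starts and for the 33 genes with no other gene end within 1000 bp, and 67.5% when the midpoint of the region had to lie in the window. The midpoint rule is stricter by its construction, and the median over the genes it kept was 4050 bp. The median width ranged from 3500 bp (genes with no near neighbour) to 4400 bp (regions merged within 1000 bp). The split by another start in the region was added after the data were seen, as were its alternatives. With another start the median was 5750 bp after adjoining regions were merged, 6100 bp after merging within 1000 bp and 5600 bp with each region counted once. Without another start it was 3400 and 3500 bp after the same mergings. No paired analysis was possible because each list stands for all samples of its antibody. Leaving out a replicate was not possible for the same reason, and region heights and depth are unknown.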

Other observations

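Inside the genes, away from both ends, 12 listed H3K4me3 regions lay in 10 of the 77 genes, and the share over all genes was not counted. The inner regions at Mrpl18, Mrpl37, Mrps11, Mrps18c and Mrps5 adjoined the region at the start end, directly or through another inner region. No base lay between them, so these can be pieces of a longer stretch and not separate sites. Those at Mrps23, Mrpl18 and Mrpl22 covered the gene's annotated start, with widths of 3700, 2900 and 3000 bp. Mrpl48, a gene of 62523 bp, had inner regions of 1900 and 2100 bp, the first reaching from 16201 to 18100 bp and the second from 24401 to 26500 bp downstream of the start, beside the 3600 bp region over that start. The other inner regions were 200 to 1000 bp wide. No succinyllysine region lay inside any of the 77 genes away from the ends, and the corresponding share over all genes was not counted. Such a region touched the body of 3 of the 77 genes (3.90%), beside 8.18% of all protein-coding genes. Over all protein-coding genes the median length was 17169 bp, beside 7632 bp for these genes, and what part length has was not tested.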
